A study of Mus musculus with 3 samples.

Results

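The myeloid C-type lectin receptors described here are 9 genes taken by symbol from 55536 annotated genes: Mrc1, Clec10a, Clec7a, Clec4n, Clec4d, Clec4e, Clec5a, Clec12a and Clec4a2. Their RNA was measured in the cytosolic fraction of macrophages derived from the bone marrow of C57BL/6J mice, with ribosomal RNA removed. The 3 libraries are numbered as biological replicates 1, 2 and 3. All cells had received lipid A, the lipid part of bacterial lipopolysaccharide that activates TLR4, at 100 ng/ml for 25 minutes, and 1 µg of RNA went into a library. There is a single group, so the values are levels, transcript shares and spreads between libraries, and no untreated or nuclear level is set beside them. The labels name a single donor record, state that age and sex were not collected, and do not say that the replicates came from separate animals, so the spread between libraries may be technical.

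C-type lectin receptors carry a lectin-type recognition domain that binds sugars, glycolipids or ligands from damaged cells. In macrophages some of them take up glycoproteins, some activate the kinase Syk through an immunoreceptor tyrosine-based activation motif in their own tail or in an adaptor chain, and some carry an inhibitory motif that recruits phosphatases. Mincle, the product of Clec4e, is known as a receptor that macrophages make after stimulation with bacterial products.

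Total expected counts per library were 53055764, 43620362 and 38623777 in replicates 1, 2 and 3, and 3 counts stood for 0.0566, 0.0689 and 0.0777 CPM, that is counts relative to library size. Macrophage markers were at 1 TPM or more in every library for 12 of 12 genes, with Lyz2 at 4945 ± 1494 TPM (transcript abundance scaled by length and library; SD, n = 3). Of the other cell types, 4 of 6 monocyte, 4 of 13 neutrophil, 2 of 7 osteoclast, 2 of 10 dendritic cell, 1 of 6 B cell, 1 of 8 T and NK cell and 0 of 9 mast cell markers reached 1 TPM in every library, the T and NK cell one being Cd4. The highest monocyte marker was Nr4a1, also known as an early response gene, at 72.2 ± 31.6 TPM, and Plac8, Ccr2 and Ly6c2 averaged 4.09 TPM or less. The osteoclast marker Atp6v0d2 had 61.2 ± 14.6 TPM (SD, n = 3 each). Summed neutrophil marker TPM was 34.5, 57.1 and 40.8 in replicates 1, 2 and 3, led by S100a9 with 20.2 TPM and S100a8 with 12.3 TPM on average, while the neutrophil surface gene Ly6g and the T-cell receptor chain gene Cd3e had 2 counts or fewer in every library. The part of these cell types in the receptor values was not tested. Protein-coding nuclear genes held 22.7, 22.9 and 29.8% of all TPM, so a coding gene at an equal share of the coding RNA reads higher in TPM in replicate 3. Levels between genes are therefore given in TPM, and levels between libraries in CPM scaled by TMM (trimmed mean of M values).

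The 9 receptor genes spanned a 22.9-fold range of mean TPM. At 1 TPM or more in all 3 libraries, 9 of 9 were detected, against 41.3% of protein-coding nuclear genes. At 5 TPM or more the count was 8 of 9, against 24.6%, and Clec5a was the gene below it, at 4.99 and 4.68 TPM in replicates 1 and 2. The median of the 9 means was 47.0 TPM, beside 0.163 TPM over all protein-coding nuclear genes and 7.79 TPM over the detected ones. By mean TPM the order was Clec4d, Clec7a, Mrc1, Clec4n, Clec12a, Clec4a2, Clec10a, Clec4e and Clec5a, from rank 247 to rank 5308. Of the 8 neighbouring pairs in that order, only Clec12a and Clec4a2 had ranges over the libraries that did not overlap, with 41.9 TPM as the lowest value of Clec12a and 21.9 TPM as the highest of Clec4a2. The ranges of the other 7 pairs overlapped, although in 4 of them the gene of higher mean was the higher in 3 of 3 libraries: Mrc1 over Clec4n, Clec4a2 over Clec10a, Clec10a over Clec4e and Clec4e over Clec5a. These ranges include the higher TPM that coding genes read in replicate 3. With TPM rescaled over coding and long noncoding genes, Mrc1 and Clec4n did not overlap, at 399 as the lowest and 357 as the highest value. Without replicate 3 the ranges of 5 pairs did not overlap.

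**Figure D1:**
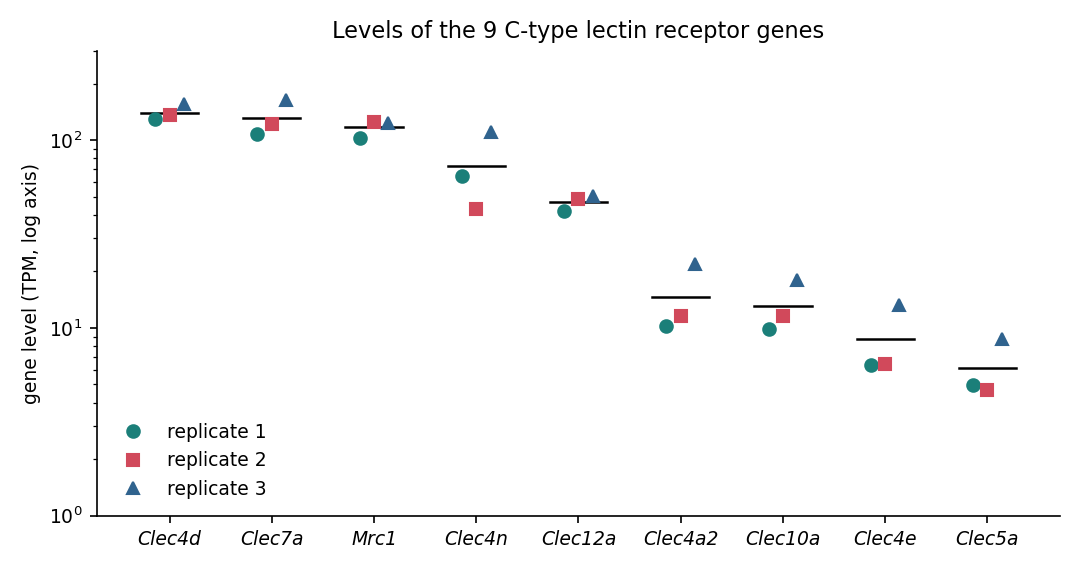
Gene level (TPM, log axis) of the 9 receptor genes in each of the 3 libraries, with a horizontal line at the mean. Clec4d, Clec7a and Mrc1 lie at 103 TPM or more in every library, and Clec4a2, Clec10a, Clec4e and Clec5a at 21.9 TPM or less.

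Mrc1 encodes the mannose receptor CD206, an endocytic receptor for mannose-bearing glycoproteins. It lies on chromosome 2 (mm10 chr2:14229392-14332057, plus strand). Mrc1 had 103, 125 and 123 TPM in replicates 1, 2 and 3 (117 ± 12.3, SD, n = 3). Its expected counts were 54614, 51427 and 37134. Mrc1 held 51.2, 54.6 and 46.2% of all counts on the 9 genes, yet lay below Clec4d and Clec7a in mean TPM, which divides by length, and its main transcript is 5374 bases long. In scaled CPM, replicate 2 was the highest library and replicate 3 the lowest, 1.27-fold apart. The full-length transcript Mrc1-201, with 30 exons, took 99.2, 98.8 and 99.1% of the gene's TPM, and the remainder was on a retained-intron transcript. The microRNA gene Mir511 lies inside Mrc1 on the same strand and had 0 counts in every library.

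Clec10a encodes MGL1, a receptor for sugars with galactose residues, and lies on chromosome 11 (mm10 chr11:70156197-70170834, plus strand). Clec10a had 9.82, 11.6 and 18.02 TPM in replicates 1, 2 and 3 (13.1 ± 4.32, SD, n = 3). Replicate 3 was the highest library also in scaled CPM, at 33.7 against 24.2 in replicate 1 and 27.7 in replicate 2. Of the distinct 31-base words in its transcripts, 14.8% also occur in other genes, and 419 of those 455 words are shared with its close relative Mgl2. Mgl2 was below 1 TPM in every library (0.723 ± 0.185, SD, n = 3), and the expected counts of Clec10a were not whole numbers in replicates 2 and 3, so some reads were divided between genes. A pair of coding transcripts held the gene in near-equal parts: Clec10a-202 took 43.6, 50.8 and 50.3% of TPM, and Clec10a-201 took 50.2, 45.8 and 46.4%. Their coding parts differ by 3 bases at the start of an internal exon, printed here in capitals with the bases around them because this choice of splice site is the difference between their coding parts.
Clec10a-201 junction: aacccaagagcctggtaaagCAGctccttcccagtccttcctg
Clec10a-202 junction: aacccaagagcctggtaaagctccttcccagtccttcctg
The exon part of the form with the 3 bases is mm10 chr11:70168583-70168605. Outside the coding part the annotated ends of the pair also differ, and Clec10a-202 is 1496 bases long against 1454 for Clec10a-201, so their shares do not rest on the 3 bases alone. Of the 31-base words of Clec10a-202, 72 are absent from Clec10a-201, and 30 of those of Clec10a-201 are absent from Clec10a-202. The share of transcripts with the 3 bases was 53.0, 49.2 and 47.7% in the alignment-based tables and 50.8, 49.3 and 46.4% in the alignment-free tables.

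Clec7a encodes Dectin-1, a receptor for fungal beta-glucans that signals to Syk through a motif in its own cytoplasmic tail. It lies on chromosome 6 (mm10 chr6:129461591-129472779, minus strand). Clec7a had 108, 122 and 163 TPM in replicates 1, 2 and 3 (131 ± 28.8, SD, n = 3). In scaled CPM the same libraries had 336, 354 and 390, so that the libraries differed by 1.16-fold on the scale that takes the shared shift of replicate 3 out. Full-length Dectin-1 has a stalk between membrane and lectin domain, and a shorter known form lacks it. Transcripts with the stalk exon made up 68.9, 69.1 and 70.8% of the TPM on the main 3 forms, and Clec7a-202, which skips it, took the other 30.4% on average. The alignment-free tables gave 68.0, 68.9 and 69.7%, and the SD over the 3 libraries was 1.07 percentage points in the alignment-based tables. These are shares of the exon and not of a full-length product, because Clec7a-204, which carries the exon, meets a stop codon in it.

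The annotation holds Clec7a as a polymorphic pseudogene, and 1 of its transcripts reads into a stop codon. Both stalk-bearing transcripts, Clec7a-201 and Clec7a-204, have a coding part of 732 bases, and they differ at the junction between the second exon and the stalk exon. The capitals mark the 10 bases that lie between the shared parts, of which 8 differ. Clec7a-202 is shown for the same junction without the stalk exon.
Clec7a-201 junction: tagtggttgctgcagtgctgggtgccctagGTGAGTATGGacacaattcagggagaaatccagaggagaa
Clec7a-204 junction: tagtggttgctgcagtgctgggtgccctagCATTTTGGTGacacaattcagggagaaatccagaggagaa
Clec7a-202 junction: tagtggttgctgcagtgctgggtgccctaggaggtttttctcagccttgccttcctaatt
The first 30 bases of each are mm10 chr6:129470899-129470928 read on the minus strand. In Clec7a-204 the stalk exon (mm10 chr6:129468869-129469003, minus strand, 135 bases) reads into a stop codon in frame, at codon 71, shown in capitals.
Clec7a-204 stalk exon: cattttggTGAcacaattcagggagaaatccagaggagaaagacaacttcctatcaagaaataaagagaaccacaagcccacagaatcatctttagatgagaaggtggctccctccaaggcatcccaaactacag
Clec7a-201 reads through to codon 245 and Clec7a-202 to codon 200. The intron that Clec7a-201 would remove begins with GT and ends with TG, whereas introns almost always end with AG, and the intron after the second exon of Clec7a-204 also begins with GT. The stop codon shown is that of the mm10 transcript, and the cells came from C57BL/6J mice. The deposited tables hold no reads, so which base the cells carry at the stop codon was not read here.

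The division of reads between Clec7a-201 and Clec7a-204 rests on few positions. Of the 2247 distinct 31-base words of Clec7a-201, 44 are absent from Clec7a-204, and of the 2242 of Clec7a-204, 39 are absent from Clec7a-201. Clec7a-202 is annotated at 707 bases against 2277 for Clec7a-201, and 1597 words of Clec7a-201 are absent from Clec7a-202. The shares of Clec7a-202 and of the stalk exon therefore do not rest on that exon alone. Clec7a-201 took 42.5, 33.0 and 42.6% of the gene's TPM in replicates 1, 2 and 3, Clec7a-204 took 26.2, 35.8 and 27.99%, and Clec7a-202 took 30.99, 30.8 and 29.1%. By these shares Clec7a-204 was the leading form in replicate 2 and the lowest of the 3 forms in replicates 1 and 3. Its place below Clec7a-202 in replicate 3 did not hold in the alignment-free tables, with 30.1% against 29.9%. By expected counts, which are not divided by length, Clec7a-202 was the lowest form in every library, at 9.69, 9.67 and 9.18%. In replicate 1 the authors' deposited intervals were 23.7 to 31.5 TPM for Clec7a-204 and 41.6 to 49.5 TPM for Clec7a-201, and they did not overlap. In replicate 3 the intervals of Clec7a-204, 38.7 to 50.8 TPM, and Clec7a-202, 43.6 to 49.7 TPM, overlapped. In replicate 2 the intervals were 37.5 to 51.3 TPM for Clec7a-204 and 30.9 to 44.7 TPM for Clec7a-201, and they overlapped (the level of these intervals is not given in the sources used here). Of the transcripts with the stalk exon, 38.1, 52.1 and 39.6% were given to Clec7a-204, and the alignment-free tables gave 42.9, 59.5 and 43.8%, again highest in replicate 2.

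Clec4n, Clec4d and Clec4e are neighbours on chromosome 6, and their receptors pair with the FcRγ chain, the adaptor encoded by Fcer1g. Clec4n encodes Dectin-2, a receptor for fungal mannans (mm10 chr6:123229843-123247021, plus strand). Clec4n had 64.4, 43.0 and 110.4 TPM in replicates 1, 2 and 3 (72.6 ± 34.4, SD, n = 3). Its scaled CPM were 124, 78.3 and 162, the widest gap among the 9 genes at 2.07-fold, with replicate 2 lowest and replicate 3 highest. Clec4n-201 took 67.6, 66.3 and 68.7% of the gene's TPM and Clec4n-202 took 29.7, 31.8 and 28.4%, with means of 67.5 ± 1.19% and 29.9 ± 1.70% (SD, n = 3 each). The form Clec4n-202 leaves out an exon of 102 bases (mm10 chr6:123232093-123232194), shown here because it is the difference between the pair of main products and keeps the reading frame.
Clec4n cassette exon: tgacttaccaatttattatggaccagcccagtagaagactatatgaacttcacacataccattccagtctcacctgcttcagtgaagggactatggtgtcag
This exon was present in 69.7, 67.9 and 71.0% of the transcripts that decide it, and in 73.9, 72.8 and 73.8% by the alignment-free tables.

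Clec4d encodes MCL, a receptor that forms complexes with Mincle (mm10 chr6:123262111-123275265, plus strand). Clec4d had 129, 136 and 155 TPM in replicates 1, 2 and 3 (140.4 ± 13.4, SD, n = 3), the highest mean of the 9. Its scaled CPM were 261, 251 and 235, only 1.11-fold apart, and here replicate 1 was the highest library. Clec4d-201 took 79.6, 75.1 and 77.3% of TPM. A transcript annotated as a target of nonsense-mediated decay, Clec4d-203, took 19.2, 20.4 and 20.1% in the alignment-based tables and 27.2, 28.2 and 31.9% in the alignment-free tables. Clec4d-203 starts an internal exon 77 bases later than Clec4d-201, which shifts the frame and gives a stop at codon 80, while Clec4d-201 codes for 219 residues. The bases it leaves out (mm10 chr6:123267992-123268068) end in AG, the last pair of bases of an intron, in capitals.
Clec4d skipped bases: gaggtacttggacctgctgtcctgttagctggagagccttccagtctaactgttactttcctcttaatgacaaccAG

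Clec4e encodes Mincle, which binds mycobacterial trehalose dimycolate (mm10 chr6:123281789-123289870, minus strand). Clec4e had 6.38, 6.39 and 13.3 TPM in replicates 1, 2 and 3 (8.69 ± 3.99, SD, n = 3). In scaled CPM it had 31.6, 37.4 and 50.2, a 1.59-fold gap with replicate 3 highest. Clec4d exceeded Clec4e in TPM 20.3-fold, 21.4-fold and 11.7-fold in the same libraries, so the ratio was lowest in replicate 3. The tables of each kind divided Clec4e differently between its transcripts. Its coding form Clec4e-201 took 62.7, 43.8 and 59.7% of TPM in the alignment-based tables, against 30.5, 19.03 and 37.8% in the alignment-free tables. Clec4e-204, a transcript of 370 bases annotated as a target of nonsense-mediated decay, took 9.72, 0 and 2.71% in the alignment-based tables. In the alignment-free tables Clec4e-204 took 32.0, 27.4 and 9.34%, on only 52.1, 46.5 and 17.4 estimated counts.

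Transcripts that keep an intron made up the largest other share of Clec4e, 26.0, 50.5 and 34.0% of TPM and 41.2, 67.3 and 45.1% of its expected counts. Clec4e-206 keeps an intron of 2375 bases, Clec4e-203 keeps one of 72 bases, and Clec4e-205 keeps both. The short intron (mm10 chr6:123286360-123286431, minus strand) is shown with its first and last pair of bases in capitals.
Clec4e short intron: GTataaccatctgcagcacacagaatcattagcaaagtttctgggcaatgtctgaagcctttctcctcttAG
From the start codon of Clec4e-201, which codes for 214 residues, the reading frame meets a stop at codon 84 with the short intron kept and at codon 48 with the long one kept. The long intron was present in 24.1, 49.0 and 23.5% of the transcripts that decide it, and in 21.6, 36.4 and 26.3% by the alignment-free tables, both highest in replicate 2. The short intron was present in 11.6, 34.9 and 19.1%, highest in replicate 2, whereas the alignment-free tables gave 12.7, 15.2 and 23.3%, highest in replicate 3. Summed to the gene and rescaled over coding and long noncoding genes, the alignment-free level of Clec4e was above the alignment-based one by 0.49, 0.78 and 0.20 on the log2 scale, while the other 8 genes differed by at most 0.20 in any library.

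Clec5a encodes MDL-1, which pairs with the adaptor DAP12, the product of Tyrobp (mm10 chr6:40574894-40585821, minus strand). Clec5a had 4.99, 4.68 and 8.71 TPM in replicates 1, 2 and 3 (6.13 ± 2.24, SD, n = 3), the lowest of the 9. Its expected counts were 823, 615 and 755, and its scaled CPM differed by 1.34-fold, with replicate 3 highest and replicate 2 lowest. The leading transcript, Clec5a-201, is annotated as a processed transcript without a coding part and took 62.5, 69.7 and 63.6% of TPM. Clec5a-201 leaves out exons of 137 and 60 bases, and from the start codon of Clec5a-202 it meets a stop at codon 27. Coding forms therefore held 37.5, 30.3 and 36.4% of the gene. Of these, Clec5a-203 carries an exon of 75 bases that Clec5a-202 lacks (mm10 chr6:40584356-40584430, minus strand), which keeps the reading frame.
Clec5a cassette exon: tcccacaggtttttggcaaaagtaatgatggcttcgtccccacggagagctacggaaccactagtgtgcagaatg
This exon was present in 57.2, 57.0 and 51.1% of the coding forms, and in 66.2, 75.8 and 59.6% by the alignment-free tables, and those forms held 40.2, 34.7 and 33.4% of the gene's expected counts.

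The inhibitory receptors are encoded by Clec12a and Clec4a2, whose tails carry an inhibitory tyrosine motif. Clec12a encodes MICL, a receptor for uric acid crystals from dead cells (mm10 chr6:129342691-129365303, plus strand). Clec12a had 41.9, 48.5 and 50.7 TPM in replicates 1, 2 and 3 (47.0 ± 4.597, SD, n = 3). Its scaled CPM were 189, 205 and 173, 1.19-fold apart, with replicate 2 highest. Clec12a-201 took 98.1, 96.0 and 98.4% of TPM, and 93.7, 92.8 and 89.3% in the alignment-free tables.

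Clec4a2 encodes DCIR, the dendritic cell immunoreceptor (mm10 chr6:123106428-123143999, plus strand). Clec4a2 had 10.3, 11.6 and 21.9 TPM in replicates 1, 2 and 3 (14.6 ± 6.33, SD, n = 3). In scaled CPM replicates 1 and 2 were almost equal, at 19.6 and 19.7, and replicate 3 was higher, at 28.7. Of the 31-base words of Clec4a2, 10.9% also occur in other genes, most often in Clec4a4, which had 0.23, 0.20 and 0.32 TPM. Its forms were divided unequally between libraries. Clec4a2-204 took 48.5, 59.3 and 64.6% of TPM, and Clec4a2-201 took 36.4, 27.3 and 21.1%. The form Clec4a2-201 has a coding exon of 72 bases (mm10 chr6:123139057-123139128) that Clec4a2-204 and Clec4a2-202 leave out, and it codes for 262 residues where Clec4a2-204 codes for 238.
Clec4a2 cassette exon: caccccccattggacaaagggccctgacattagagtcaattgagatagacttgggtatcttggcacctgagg
The exon was present in 38.3, 28.6 and 22.5% of the transcripts that decide it, and in 34.3, 25.3 and 20.4% by the alignment-free tables. Both tables put replicate 1 highest and replicate 3 lowest. Clec4a2-201 is annotated at 1261 bases and Clec4a2-204 at 918. Of the 31-base words of Clec4a2-201, 443 are absent from Clec4a2-204, so these shares do not rest on the exon alone.

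**Figure D2:**
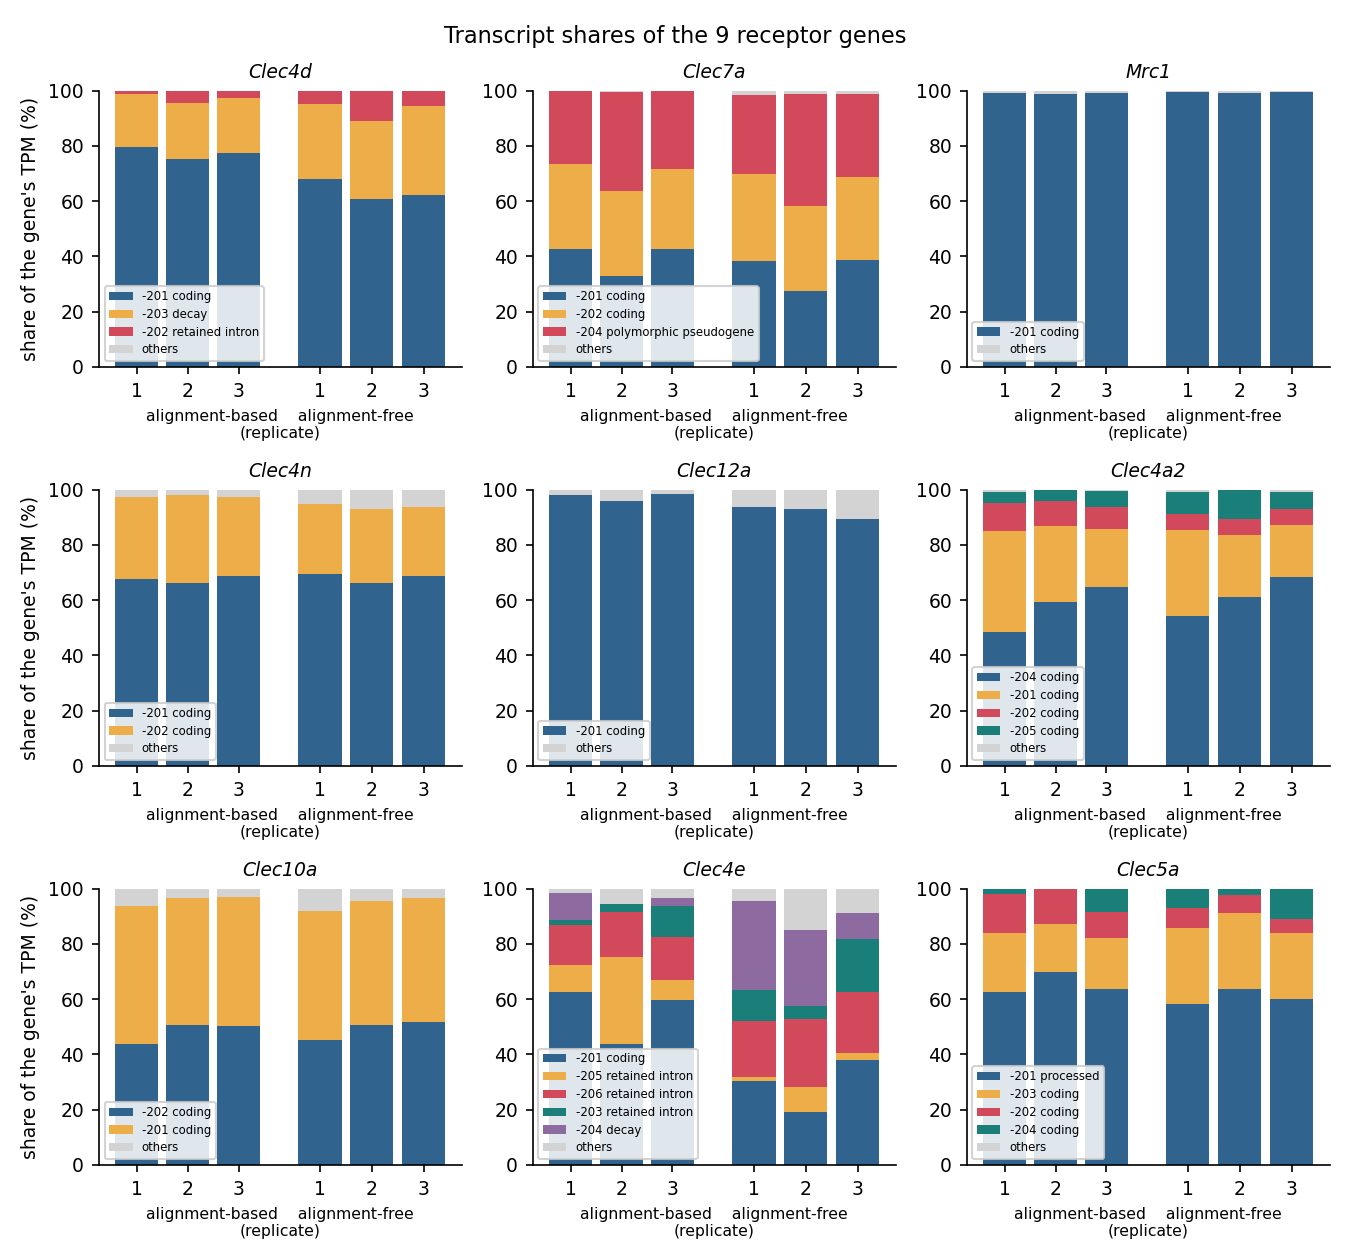
Share of each gene's TPM (%) on its transcripts in replicates 1, 2 and 3, at left from the alignment-based tables and at right from the alignment-free tables; "decay" marks transcripts annotated as targets of nonsense-mediated decay and "processed" a processed transcript without a coding part. Mrc1 and Clec12a are nearly all on a single coding form, and Clec4e is divided differently by the tables of each kind.

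Across the 9 genes, the leading transcript took over 50% of TPM in every library for 5 genes: Mrc1, Clec12a, Clec4d, Clec4n and Clec5a. The share of coding genes with at least 2 transcripts that meet this was 77.1% of 8436. At 75% the count was 3 of 9, against 48.7%, with Mrc1, Clec12a and Clec4d above it. The median share on protein-coding transcripts was 97.5% over the 9 genes and 96.6% over the same coding genes. Below that median lay Clec4d with 77.4 ± 2.23%, Clec7a with 69.7 ± 5.19%, Clec4e with 57.0 ± 8.93% and Clec5a with 34.7 ± 3.87% (SD, n = 3 each).

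**Figure D3:**
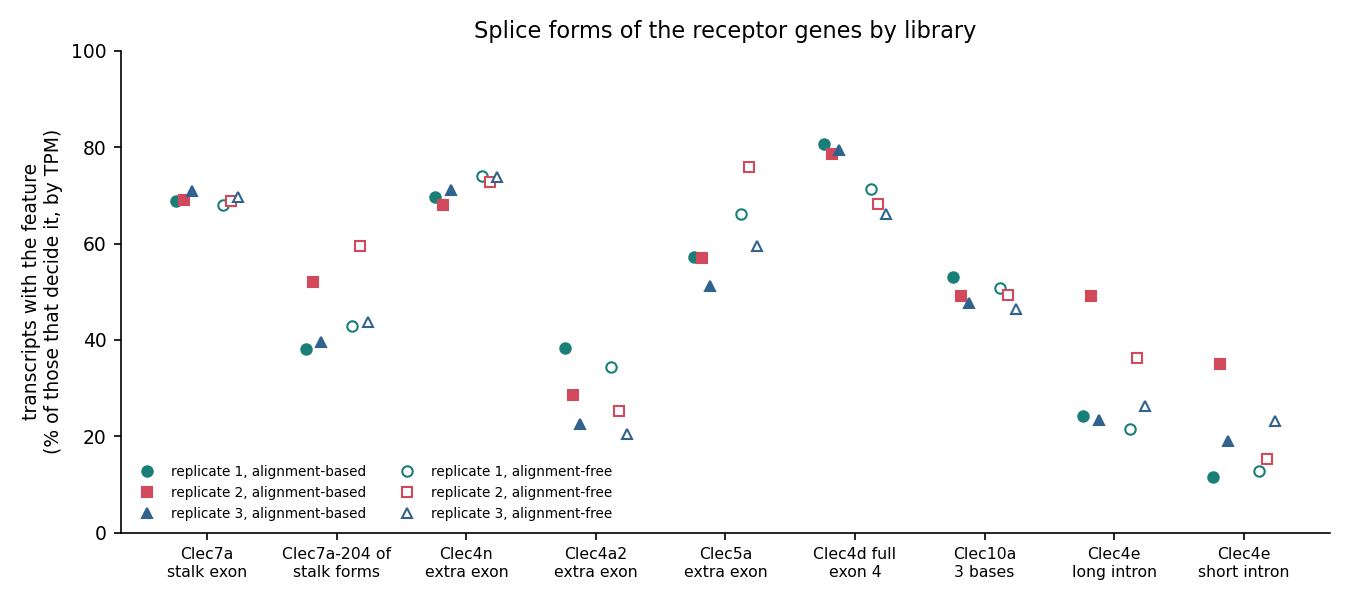
Percent of transcripts with each splice feature among those that decide it, by TPM, in 3 libraries; filled symbols are the alignment-based tables and open symbols the alignment-free tables. The stalk exon of Clec7a lies between 68.0 and 70.8% in all 6 values, while Clec7a-204 and the long intron of Clec4e are highest in replicate 2 in the tables of both kinds. The stalk exon values include Clec7a-204, which meets a stop codon in that exon.

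Retained-intron transcripts were highest in replicate 2 for 5 of the 5 receptor genes with such a share, against 71.8% of 5489 coding genes. These were Clec4e, then Clec4d with 1.21, 4.49 and 2.58% of TPM, Clec12a with 1.77, 4.002 and 1.64%, Mrc1 with 0.81, 1.22 and 0.87%, and Clec7a with 0.34, 0.46 and 0.28%. The alignment-free tables put replicate 2 highest for 3 of 6 genes, Clec4d, Clec12a and Mrc1, against 77.4% of 5636. The median retained-intron share over coding genes was 1.71, 3.73 and 1.52% in the alignment-based tables, again highest in replicate 2. The nuclear RNA Malat1 was also highest in replicate 2, with 392, 1144 and 374 TPM, as was Neat1 with 32.4, 107 and 37.3 TPM, and the part of nuclear RNA in these shares was not tested.

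Between libraries, Clec4n and Clec4e differed most, and Clec4d least. These 2 of 9 genes, Clec4n and Clec4e, differed over 1.5-fold between highest and lowest library, against 9.34% of 10348 genes whose mean count reached 100, and Clec4n alone differed over 2-fold, against 3.3%. The SD of log2 CPM was 0.53 for Clec4n, above that of 96.8% of those genes, and 0.34 for Clec4e, above 92.1%. The median SD was 0.21 over the 9 genes and 0.11 over all such genes. Without replicate 3 the median SD was 0.11 over the receptor genes and 0.09 over all such genes. Without replicate 1 only Clec4n of the 9 stayed over 1.5-fold (2.07-fold), against 7.82% of genes. Without replicate 2 only Clec4e did (1.59-fold), against 2.68%, and without replicate 3 only Clec4n (1.59-fold), against 4.83%.

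Replicate 3 was the highest library in scaled CPM for 6 of 9 genes, Clec7a, Clec4n, Clec4a2, Clec10a, Clec4e and Clec5a, against 35.6% of the 10348 genes. Mrc1 and Clec12a were highest in replicate 2, against 35.7% of genes, and Clec4d in replicate 1, against 28.7%. The median deviation of the 9 genes from their own means was -0.04, -0.03 and 0.23 (log2 CPM) in replicates 1, 2 and 3. Over the 9 other C-type lectin domain genes of that depth it was -0.06, -0.07 and 0.21, over the adaptors and kinases -0.01, -0.10 and 0.13, and over 12 macrophage markers -0.07, -0.05 and 0.08. Over 16 early lipid A response genes it was -0.17, -0.24 and 0.51. Of the 4 highest of these in TPM, Zfp36, Junb and Nfkbia were highest in replicate 3 on that scale, and Fos, at 320, 521 and 434 TPM, in replicate 2. The part of the response genes in the higher receptor values of replicate 3 was not tested. In bulk RNA, fewer cells with a transcript and less RNA per cell cannot be told apart.

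**Figure D4:**
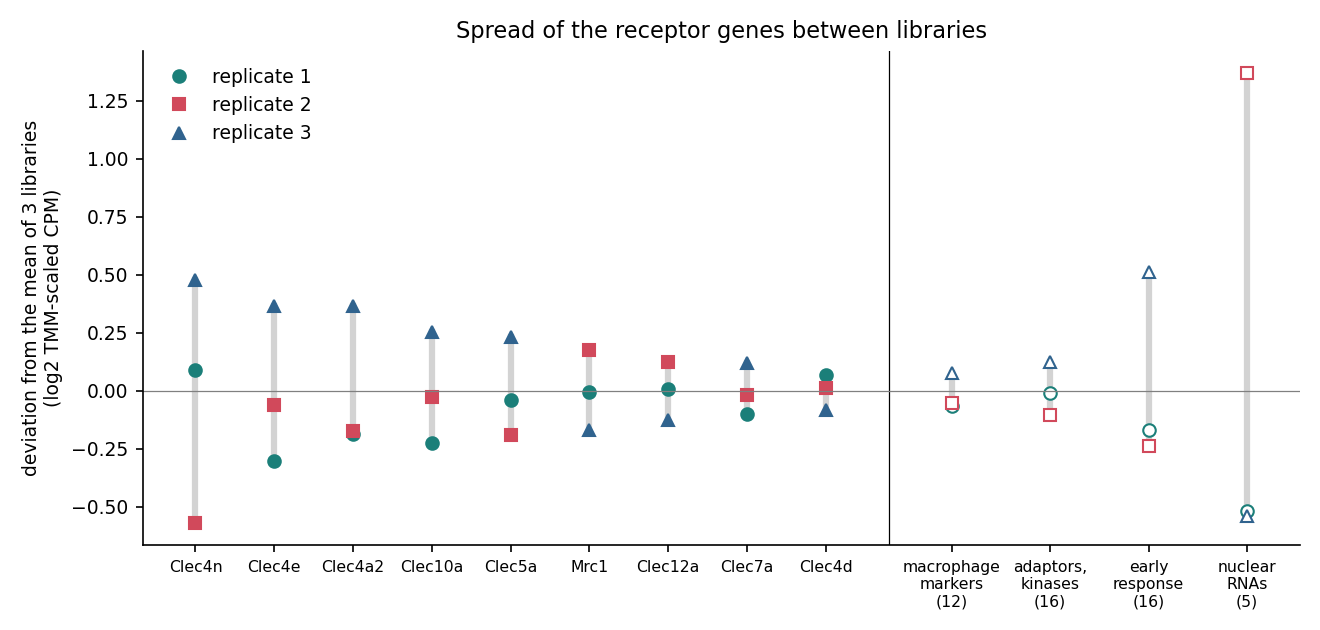
Deviation of each receptor gene from its mean over 3 libraries (log2 TMM-scaled CPM), ordered by the gap between highest and lowest library, and at right, as open symbols, the median deviation over gene lists with the number of genes in parentheses. Clec4n spans the widest range of the 9 genes, and replicate 3 is highest for the first 5 genes from the left as it is for the early response genes.

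The adaptors and kinases through which some of these receptors signal were present in most cases. Of the listed ones, 15 of 17 were at 1 TPM or more in every library, against 41.3% of protein-coding nuclear genes. The adaptor genes led, with Tyrobp at 757, 658 and 993 TPM (802 ± 172, SD, n = 3) and Fcer1g at 547, 407 and 704 TPM (553 ± 149, SD, n = 3), each above every receptor gene in every library. In scaled CPM both adaptor genes were lowest in replicate 2, Fcer1g at 496, 348 and 497 and Tyrobp at 553, 456 and 581. Of the 3 receptor genes described above as partners of Fcer1g, Clec4n was also lowest there, while Clec4d was lowest in replicate 3 and Clec4e in replicate 1. Syk, the kinase downstream of both, had 70.7 ± 10.7 TPM and Prkcd, a kinase between Syk and CARD9, had 47.2 ± 12.2 TPM (SD, n = 3 each). The Src-family kinase gene Fgr was below 1 TPM in every library, at 0.243 ± 0.0603 TPM (SD, n = 3).

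Of the phosphatases and ligases listed as inhibiting or modulating this pathway, 9 of 9 were detected, against 41.3% of protein-coding nuclear genes. Ptpn6, which encodes SHP-1, a phosphatase recruited by the inhibitory motifs of MICL and DCIR, had 47.1 ± 9.43 TPM. Ptprc, which encodes CD45, had 59.6 ± 12.0 TPM, Inpp5d, which encodes the lipid phosphatase SHIP-1, had 48.2 ± 8.19 TPM and the ubiquitin ligase gene Cbl had 25.5 ± 3.53 TPM (SD, n = 3 each). Over 1.5-fold between libraries differed 0 of the 9, near the 9.34% of all genes of that depth, and their median SD of log2 CPM was 0.07, beside 0.11 over all such genes and 0.21 over the receptor genes.

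Of 40 other genes with C-type lectin-like domains, 10 were at 1 TPM or more in every library and 30 were below it in every library, 11 of them listed at 0. The highest were Cd93 at 82.9 ± 5.98 TPM, Clec2d at 53.6 ± 14.1 TPM, and the relatives of Clec4a2, Clec4a3 at 51.8 ± 20.5 TPM and Clec4a1 at 43.9 ± 15.3 TPM (SD, n = 3 each). The 9 receptor genes held 67.7, 67.8 and 66.0% of the summed TPM of these 49 genes in replicates 1, 2 and 3. Clec1a had 0.20 ± 0.114 TPM and Clec1b, which encodes the platelet receptor CLEC-2, had 0.423 ± 0.103 TPM (SD, n = 3 each).

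The clusters on chromosome 6 showed levels that changed from gene to gene. Within 100 kb of Clec4a2, Clec4n, Clec4d and Clec4e lie 5 other coding genes, of which Clec4b1 alone was at 1 TPM or more in every library, at 1.09, 1.35 and 1.68 TPM. Clec4b2, between Clec4a2 and Clec4n, had 1, 9 and 1 counts, and the pheromone receptor genes Vmn2r19 and Vmn2r20 had 0. Clec4a3 (mm10 chr6:122952515-122969875) and Clec4a1 (mm10 chr6:122921848-122934619) lie outside this window, at 51.8 and 43.9 TPM on average. Within 100 kb of Clec12a and Clec7a lie 9 other coding genes, of which Cd69 and Gabarapl1 were at 1 TPM or more in every library. Clec2d (mm10 chr6:129180615-129186534), at 53.6 TPM on average, lies outside this window. Between Clec12a and Clec7a lie 4 lectin genes: Clec12b at 0, 0 and 0.01 TPM, Clec1b at 0.31, 0.45 and 0.51 TPM, Clec9a at 0.05, 0.18 and 0.13 TPM, and Clec1a at 0.15, 0.12 and 0.33 TPM. The highest of these values, 0.51 TPM for Clec1b, lay below the lowest value of Clec12a, 41.9 TPM, and of Clec7a, 108 TPM.

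**Figure D5:**
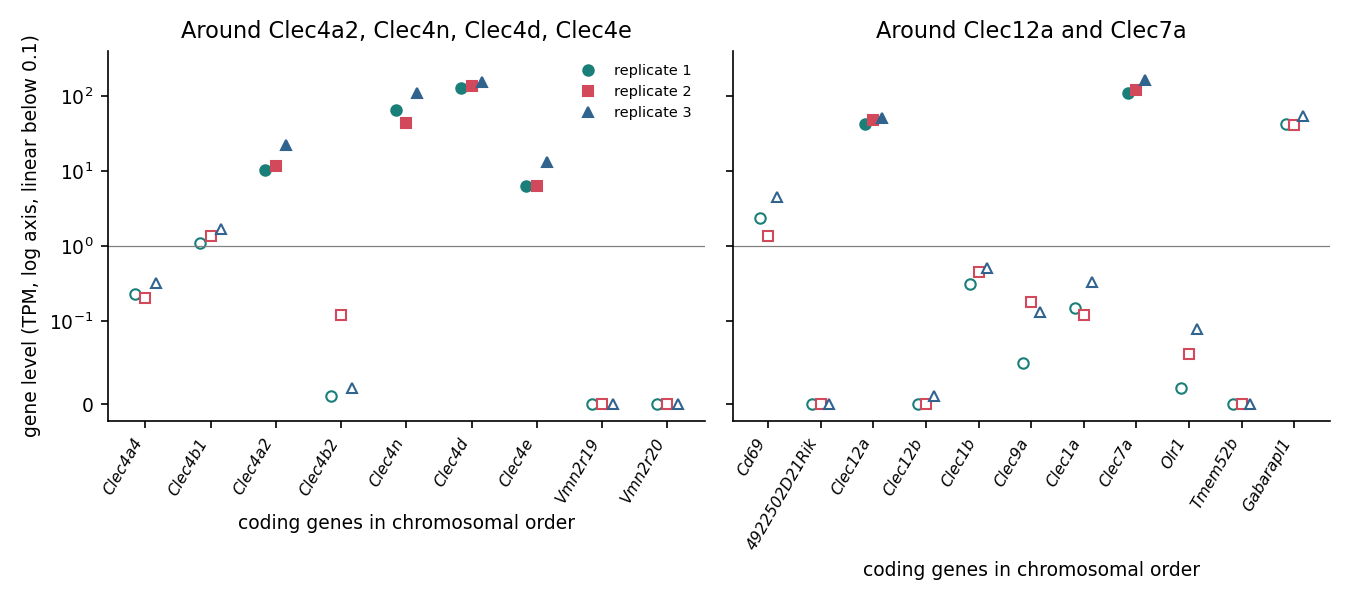
Gene level (TPM, log axis, linear below 0.1) of the coding genes within 100 kb of the chromosome 6 receptor genes, in chromosomal order and by library; filled symbols are the receptor genes and the grey line marks 1 TPM. Clec12a and Clec7a stand at 41.9 TPM or more on both sides of 4 lectin genes that lie below 1 TPM.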

How the data were processed

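Total RNA-seq of the cytosolic fraction gave 3 libraries of a single group. For each of them the authors deposited alignment-based tables of genes and of transcripts with expected counts and TPM, in the columns of RSEM, and an alignment-free table of transcripts with estimated counts and TPM, in the columns of kallisto, per the file headers. The deposited expected counts and estimated counts are raw and can be fractions of a read. The deposited TPM of a table adds up to the same total in every library, so RNAs that take a large part of it lower every other gene. The alignment-based transcript tables also hold intervals around TPM. The genome build is mm10 and the annotation GENCODE M21, per the files deposited with the tables. What versions were run and whether counting used strand is not given in the sources used, so reads of overlapping genes on opposite strands cannot be told apart.

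Members were found by gene symbol, and all 9 matched. Members and gene lists were chosen with earlier results of these data known. All 9 members are named; of each gene list the rule names the 4 genes of highest mean TPM and up to 2 below 1 TPM in every library, and of each member the transcripts with a mean share of 5% or more. Some genes and transcripts that the rule selects are not printed. Mgl2, Clec4a4, Mir511 and the genes near the chromosome 6 receptors were named outside the rule, after their values were seen.

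Levels are deposited gene TPM. For spread between libraries, expected counts were rounded, scaled by TMM factors (0.983, 0.992 and 1.02, from 12744 genes) and put on the log2 CPM scale with a prior count of 2 in edgeR 4.0.16 (R 4.3.3); genes whose mean count reached 100 form the background, and the step was tested on simulated data. Transcript shares are percents of gene TPM. A splice feature's share counts the transcripts that have it among those that have or lack it. Sequences, coordinates and reading frames come from the GENCODE M21 transcripts and annotation of mm10, read with Biopython 1.88, in Python 3.11.15. With a single group there is no comparison between conditions, no p-value and no paired design. Floors of 3 counts hold for counting error alone, because the reads carry no molecular identifiers and are not independent molecules. Alternatives were scaling by DESeq2 1.42.0 or by library size, other minimums and thresholds, the alignment-free tables, TPM rescaled over coding and long noncoding genes, shares of counts, and each replicate left out in turn.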

Additional observations from a re-analysis of the deposited data

How the results depend on the processing

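Detection of the 9 receptor genes at 1 TPM held under all alternatives run except the threshold of 5 TPM, which Clec5a missed. The number of neighbouring genes whose ranges do not overlap was 1, and 2 with alignment-free TPM or with rescaled TPM, and 2 to 5 with a replicate left out. The number of genes over 1.5-fold between libraries was 2, 3 with library size alone or alignment-free counts, and 1 at 2-fold or with any replicate left out (1 to 1). The median SD of log2 CPM was 0.21, and 0.11 to 0.24 with a replicate left out. The number of genes whose leading transcript took over 50% was 5, 6 with alignment-free TPM, 3 at 75%, and 5 to 7 with a replicate left out. The median share on protein-coding transcripts was 97.5%, 94.8% with alignment-free TPM, and 97.1 to 97.2% with a replicate left out. Of the other lectin genes 10 were detected, 6 at 5 TPM, 7 with alignment-free TPM and 13 with rescaled TPM; of the nuclear RNAs 4 were detected, and 2 at 5 TPM or with alignment-free TPM. Retained-intron shares were highest in replicate 2 for 5 genes, and for 3 with alignment-free TPM, an alternative chosen after seeing the data. The cause of these moves was not tested beyond what fewer libraries or stricter thresholds change by construction. Of the values for single genes and transcripts, 22 moved by more than the SD between libraries and 59 did not. The mean TPM of each receptor gene was lower in the alignment-free tables and higher once rescaled. Rescaling divides by the part of TPM on coding and long noncoding genes, so higher values follow by construction. With the tables of both kinds rescaled, the receptor genes other than Clec4e differed by at most 0.20 on the log2 scale in any library. No paired analysis was possible because the samples form a single group. Clec5a and Clec4a2 have the fewest counts of the 9 genes, 615 to 823 and 851 to 1134, and shares of forms that differ by few bases, such as Clec7a-201 and Clec7a-204, are estimates of the authors' programs rather than counts of reads.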
